A study of Mus musculus with 18 samples.

Results

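MiR-221 and miR-222 are a pair of X-linked microRNAs, small RNAs that pair with messenger RNAs and lower their output. The pair was followed through its 4 mature arms, listed as mmu-miR-221-3p, mmu-miR-221-5p, mmu-miR-222-3p and mmu-miR-222-5p, which were found by name among 1204 and 1265 listed mature miRNAs in the MEF sets and among 756 in B cells. The pair was chosen by measured values, namely its large rises with miR-290~295 in MEF and in B cells that had lost miR-17~92, so its values in those comparisons are given as a description, without a test.

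The mouse cells sequenced were embryonic fibroblasts (MEF) and B cells of the spleen, all of which the labels place in the Eu-myc strain, in which Myc is driven by an immunoglobulin enhancer that works in the B lineage, and B-cell lymphomas form. In the first MEF set miR-17~92, an oncogenic cluster of miRNAs that MYC activates, was overexpressed (OV), deleted (d/d), or floxed and still intact (fl/fl), with 3 libraries per group. B cells came at the same levels of miR-17~92, with 1 library each. In the second MEF set every library came from d/d cells, to which either overexpressed miR-290~295, a cluster typical of mouse embryonic stem cells, or an empty plasmid (Empty) had been added, with 3 libraries each. Growth is labelled only as standard for each line, and the labels give neither ages, nor how OV was brought about, nor the number of clones or animals. They do not say whether replicates were separate cultures, so p-values measure the spread between these libraries, which may be technical. The libraries carry the names OV1, OV2, OV4, DEL1 to DEL3 and FL3 to FL5 in the first set, and miR-290 1 to 3 and E1 to E3 in the second.

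MiR-221 and miR-222 are made from neighbouring hairpins, and their 3p arms are the products that usually act. Because these arms share a seed, the stretch near the 5′ end that selects targets, they are expected to reach many of the same messages. Known targets include Cdkn1b (p27) and Cdkn1c (p57), which brake the cell cycle, and Kit, a growth factor receptor of blood and vascular cells. The pair is known from human tumours as growth-promoting, and it is abundant in endothelial cells, smooth muscle and cultured fibroblasts.

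The mature sequences are shown because the shared seed is what groups these miRNAs. Capitals mark the seed, bases 2 to 8 counted from the 5′ end.
miR-221-3p: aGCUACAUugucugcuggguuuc
miR-222-3p: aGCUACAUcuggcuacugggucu
miR-221-5p: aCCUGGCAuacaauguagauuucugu
Set side by side from the 5′ end, the 3p arms are identical at 11 of 23 positions, with the whole seed among them. Of 1679 mature mouse sequences in the RefSeq table, 3 carry this seed, and the other one is miR-1928. The 5p arm of miR-221 has a seed of its own.

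Both hairpins lie on the minus strand of the X chromosome in RefSeq's GRCm38.p6, Mir221 at chrX:19146294-19146388 and Mir222 at chrX:19146893-19146971. They are shown whole because the arms compared below are cut from them, and capitals mark miR-221-5p and miR-221-3p in the first and miR-222-3p in the second.
Mir221: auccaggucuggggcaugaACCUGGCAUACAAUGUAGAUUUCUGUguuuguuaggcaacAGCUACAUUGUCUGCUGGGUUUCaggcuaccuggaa
Mir222: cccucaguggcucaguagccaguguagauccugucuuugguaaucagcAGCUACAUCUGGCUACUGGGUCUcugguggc
In the GENCODE annotation of GRCm38, 0 other genes overlap the interval that holds them, and the nearest is the non-coding transcript Gm14636, 10010 bp away on the same strand. They therefore stand in no exon, intron or UTR of an annotated protein-coding gene.

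The deposited values are read counts that the authors divided by a size factor for each library, called normalized counts here, and shares are percentages of a library's reads on listed miRNAs. These reads numbered 17191892 to 24920911 per library in the first MEF set, 43164128 to 58911475 in the second and 10203586 to 10612256 in B cells. MiR-17~92 had the order its labels give, with 384076 to 460467 normalized counts in OV, 1419 to 1709 in d/d and 67778 to 97384 in fl/fl MEF. In B cells it took 36.3% of reads in OV, 0.378% in d/d and 12.6% in fl/fl. MiR-290~295 took 1.64% to 1.89% of reads in MEF given that cluster and 0.00303% to 0.00425% in Empty MEF. All 8 fibroblast markers fixed for a check of cell type had reads in every MEF group, at a summed 3.98% to 8.71% of reads.

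The pair was well expressed in MEF. By share of reads, the 4 arms together took 0.573% to 0.714% in OV, 0.487% to 0.566% in d/d and 0.783% to 0.903% in fl/fl MEF. Fl/fl libraries lay above all others, and d/d libraries lay below all others. MiR-222-3p stood 25th to 38th among all miRNAs of these libraries and miR-221-3p stood 41st to 75th, while miR-222-5p stood no higher than 190th. The order of reads, miR-222-3p above miR-221-3p above miR-221-5p above miR-222-5p, held in all 9 libraries of the set. It compares reads of different small RNAs, whose capture in a library can differ.

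Deletion of miR-17~92 was compared with the floxed cluster to ask what a loss of the cluster goes with. All 4 arms fell in d/d MEF, and each arm was lower in all 3 d/d libraries than in all 3 fl/fl libraries. Of the 662 miRNAs that averaged 10 or more normalized counts, 27.6% were called lower in this comparison and 58.3% in either direction, and 33.1% had d/d libraries all below fl/fl libraries. The call is limma's test on log2 of the normalized count + 1, with Benjamini-Hochberg adjustment over all 662 at 0.05, and log2 differences are given with their SE.

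MiR-221-3p, 1 of the arms that target Cdkn1b, had 19576, 16958 and 15516 normalized counts in d/d and 31771, 45484 and 40420 in fl/fl MEF. The highest d/d library stood well under the lowest fl/fl library. The means were 17350 ± 2058 and 39225 ± 6934 (SD, n = 3 each), a log2 difference of −1.17 ± 0.19 (limma adjusted p = 0.000388), which leaves the d/d level at 44.5% of that in fl/fl. It ranked 57th from the bottom of the 662 log2 differences.

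MiR-222-3p, the most abundant arm, had 70656, 73958 and 72181 normalized counts in d/d and 111004, 127620 and 121696 in fl/fl MEF. The d/d libraries were close to each other and lay below every fl/fl library. The log2 difference was −0.73 ± 0.14 (limma adjusted p = 0.00116) and the d/d level 60.3% of that in fl/fl.

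MiR-221-5p had 4154, 3425 and 4330 normalized counts in d/d and 5437, 6964 and 6522 in fl/fl MEF, again with no overlap. It fell by 0.67 ± 0.17 on the log2 scale (limma adjusted p = 0.00659). MiR-222-5p, the rarest arm, had 616, 686 and 586 in d/d and 859, 830 and 828 in fl/fl MEF, and fell by 0.42 ± 0.14 (limma adjusted p = 0.0244). The call for miR-222-5p was lost in 5 of 6 fits that left out 1 library (without DEL1, DEL3, FL3, FL4 or FL5), where limma's adjusted p reached 0.0728. The other 3 calls held in every such fit.

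**Figure D1:**
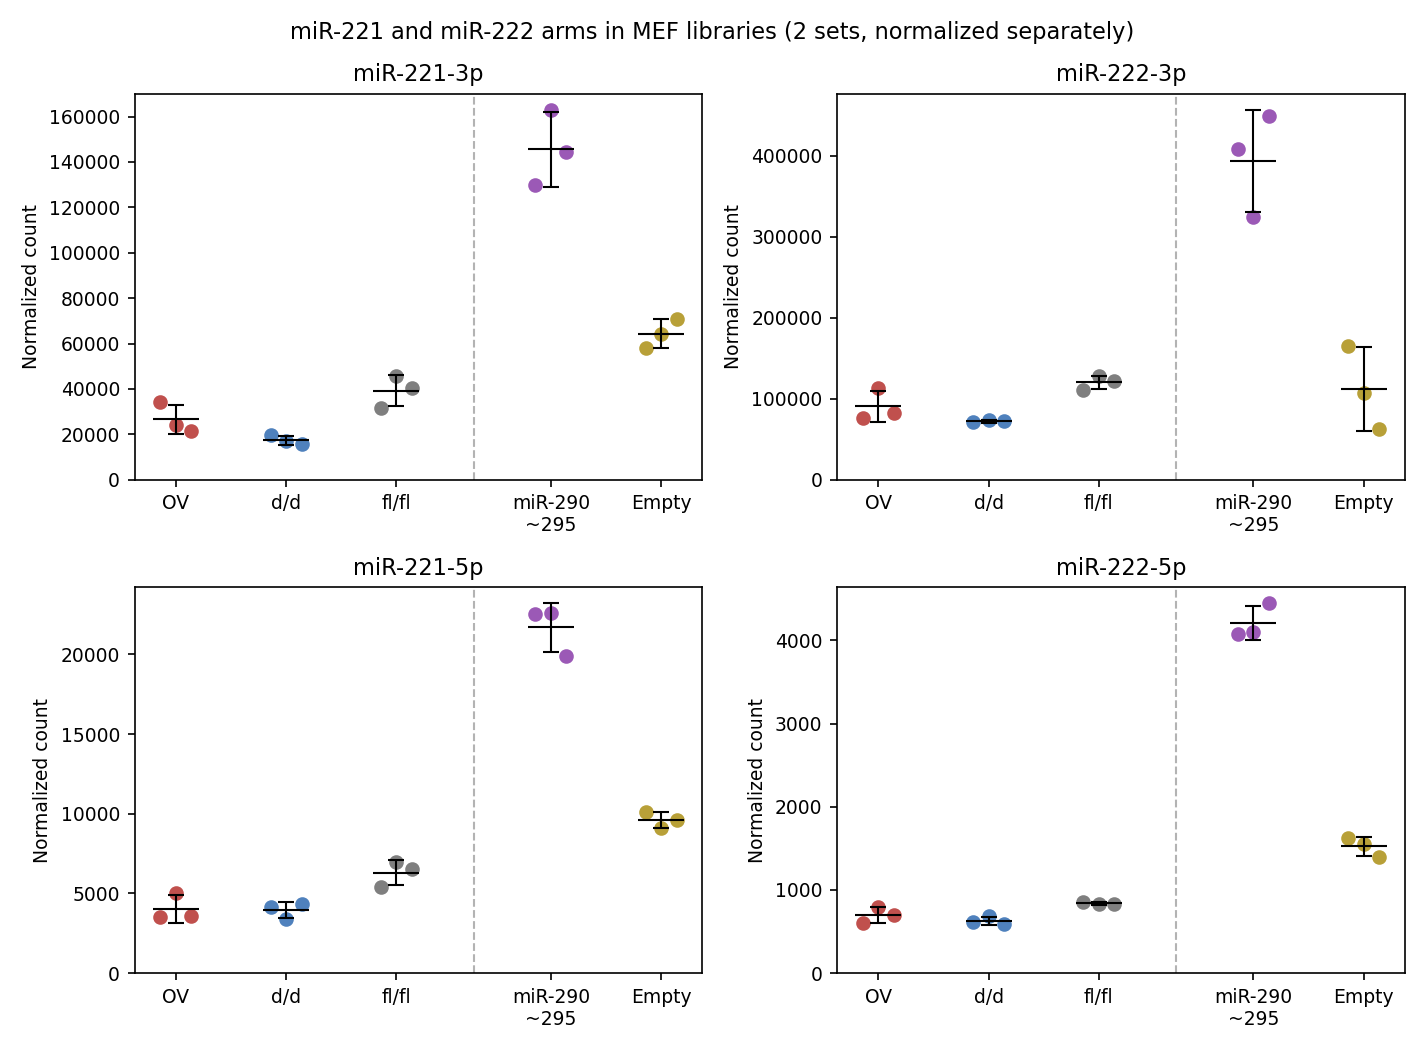
Normalized counts (y axes, linear, from 0) of the 4 arms in each MEF library, with the first set left and the second set right of the dashed line. Points are libraries, the long bar is the mean and the whiskers are 1 SD (n = 3). In every panel the d/d points lie below the fl/fl points and the miR-290~295 points above the Empty points, and levels left and right of the line were scaled separately.

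Overexpression of miR-17~92 was compared with the floxed cluster to ask what an excess of the cluster goes with. Here 3 of the 4 arms were called lower in OV, against 15.7% of all 662 miRNAs called lower and 31.3% in either direction. For 2 of the 4, OV libraries lay entirely below fl/fl libraries, as for 24.2% of all. For miR-221-5p the difference was close to that in d/d, and for the other arms it was nearer to 0; OV and d/d are compared directly further on.

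MiR-221-5p had 3495, 5005 and 3575 normalized counts in OV and 5437, 6964 and 6522 in fl/fl MEF, with no overlap. The log2 difference was −0.66 ± 0.17 (limma adjusted p = 0.0159). Both comparisons use the same fl/fl libraries. MiR-222-5p, with 608, 794 and 699 in OV and 859, 830 and 828 in fl/fl MEF, did not overlap either, but its difference of −0.27 ± 0.14 missed the threshold (limma adjusted p = 0.156).

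MiR-221-3p had 34022, 23958 and 21663 normalized counts in OV and 31771, 45484 and 40420 in fl/fl MEF. OV1 was higher than FL3, so the groups overlapped. The log2 difference was −0.58 ± 0.19 (limma adjusted p = 0.0403). MiR-222-3p had 76345, 112664 and 82196 in OV and 111004, 127620 and 121696 in fl/fl MEF, where OV2 was just above FL3, and its difference was −0.43 ± 0.14 (limma adjusted p = 0.0401). These OV libraries were not high together: OV1 was the highest of its group for miR-221-3p and the lowest for miR-222-3p, and OV2 was the highest for the other 3 arms.

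The calls of OV against fl/fl were close to the threshold. In the table scaled to spike-ins, RNA added in known amounts, the log2 differences were −0.44 for miR-221-3p, −0.52 for miR-221-5p and −0.29 for miR-222-3p, with limma's adjusted p at 0.133, 0.0664 and 0.215, so that none passed. Without FL4 or without FL5 none of the 3 passed either, with an adjusted p of at least 0.0602. MiR-221-3p also lost its call without OV2 or OV4, and miR-222-3p without OV1, OV4 or FL3. Over all miRNAs, 124 were called without FL5, against 207 with all libraries.

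OV and d/d MEF differ in miR-17~92 the most. Of the 4 arms, miR-221-3p was called between them in the table without spike-in scaling, against 26.7% of all 662 miRNAs called higher in OV and 52.4% in either direction. It had 34022, 23958 and 21663 normalized counts in OV and 19576, 16958 and 15516 in d/d MEF, with no overlap. The log2 difference was 0.59 ± 0.19 (limma adjusted p = 0.0216), and the call was lost without OV1, DEL2 or DEL3 (adjusted p up to 0.0765). MiR-222-3p was also higher in all OV libraries than in all d/d libraries, as 28.9% of all miRNAs were, but by 0.30 ± 0.14 (limma adjusted p = 0.0935). It was called without OV1 (0.41, adjusted p = 0.0291) and with the libraries' medians set equal (0.46, adjusted p = 0.0393). Both separations hold for normalized counts only. As shares of reads OV and d/d overlapped, with miR-222-3p at 0.416% in OV1 and 0.421% in DEL1. MiR-221-3p took 0.115% in OV4 and 0.117% in DEL1.

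The 5p arms overlapped between OV and d/d. MiR-221-5p differed by 0.0072 ± 0.17 on the log2 scale (limma adjusted p = 0.976), and miR-222-5p by 0.15 ± 0.14 (adjusted p = 0.406). For each 3p arm the order of the mean normalized counts was therefore fl/fl, OV, d/d from high to low, with OV and fl/fl overlapping. For miR-221-5p and miR-222-5p OV and d/d could not be put in order.

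**Figure D2:**
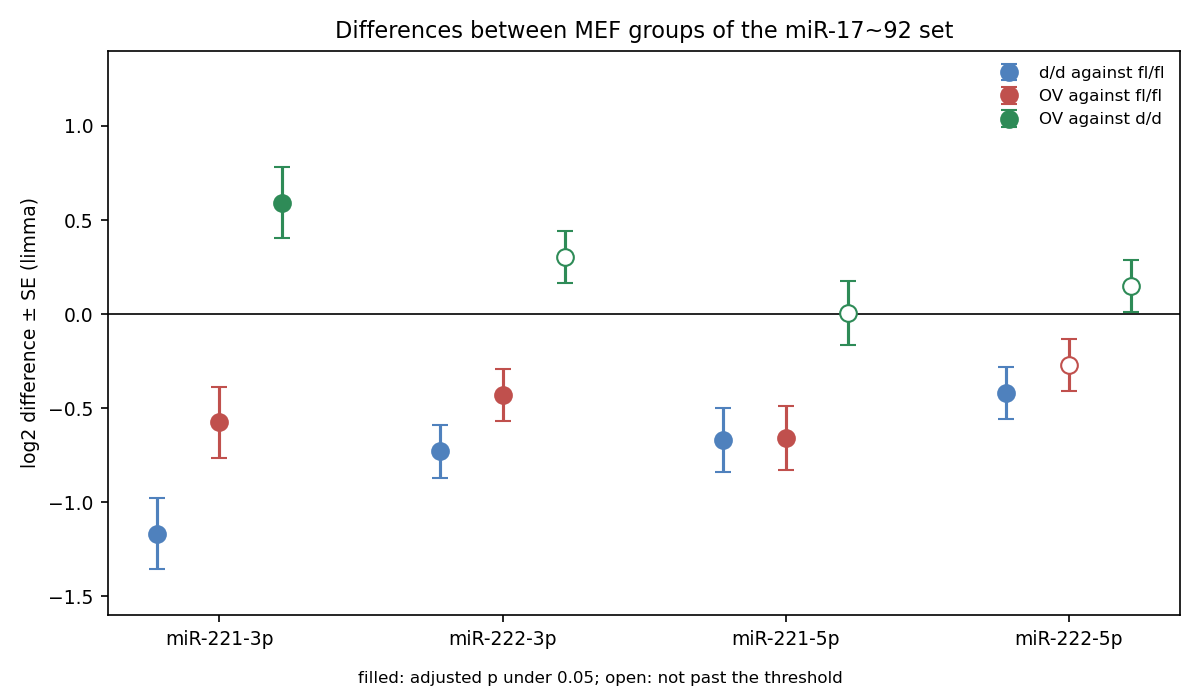
Log2 differences with SE (y axis) for the 4 arms (x axis) in the 3 comparisons of the first MEF set, from limma with 3 libraries per group. Filled points passed an adjusted p of 0.05 and open points did not. All differences from fl/fl lie below 0, between −1.17 and −0.27, and OV against d/d lies at or above 0.

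The scaling bears on the size of each value. With spike-in scaling the median log2 difference over all miRNAs was −0.39 for d/d against fl/fl, against 0.02 without, 0.07 for OV against fl/fl, against −0.07, and 0.60 for OV against d/d, against 0.02. In d/d against fl/fl the 4 arms then fell by 1.60, 1.10, 1.16 and 0.85 in the order miR-221-3p, miR-221-5p, miR-222-3p and miR-222-5p, all past the threshold and all below that median. In OV against d/d all 4 arms were then called higher, miR-221-3p by 1.16 (limma adjusted p = 0.0005), miR-222-3p by 0.87 (adjusted p = 0.000882), miR-222-5p by 0.72 (adjusted p = 0.00234) and miR-221-5p by 0.57 (adjusted p = 0.0200), the last of these below the median of all miRNAs. Over all miRNAs, calls split into 103 higher and 104 lower in OV against fl/fl (112 and 44 with spike-ins, 83 and 153 with medians set equal). Between d/d and fl/fl they split into 203 higher and 183 lower in d/d (147 and 283 with spike-ins, 162 and 245 with medians set equal), and between OV and d/d into 177 higher and 170 lower in OV (333 and 120, and 208 and 142).

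Markers of other cell types also differed between these groups. The 2 endothelial markers, miR-126a-3p and miR-126a-5p, summed to 1959 to 2150 normalized counts in OV, 966 to 1067 in d/d and 2034 to 2230 in fl/fl MEF. The 5 listed of 6 B cell and blood markers summed to 10331 to 14193 in OV, 7852 to 10144 in d/d and 12891 to 13879 in fl/fl MEF. Nearly all of that sum was miR-155-5p, with 4140 to 5784 in d/d and 8008 to 8477 in fl/fl MEF, and miR-181a-5p, which are not restricted to blood. The blood-restricted miR-142a-5p was at 12.1 to 33.2 in OV, 17.0 to 20.3 in d/d and 14.6 to 25.6 in fl/fl MEF, and miR-142a-3p and miR-150-5p were at 13.3 or less in every library. For these 3 the d/d libraries overlapped the fl/fl libraries. The 4 listed of 5 epithelial markers summed to 72.5 to 80.4 in OV, 35.6 to 57.4 in d/d and 205 to 214 in fl/fl MEF, so that d/d had the lowest sums in all 3 lists.

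The fibroblast markers took 6.20% to 6.99% of reads in OV, 7.25% to 8.22% in d/d and 6.04% to 7.94% in fl/fl MEF, but most of this sum was miR-143-3p and single markers went different ways. In d/d against fl/fl MEF 3 of the 8 fell, 1 rose and 4 were not called (over all 27.6% fell and 30.7% rose). MiR-199a-3p had 86023 to 110256 normalized counts in d/d and 150996 to 192730 in fl/fl MEF, a log2 difference of −0.81 ± 0.17 (limma adjusted p = 0.00219) that lay within the range of the 4 arms, and miR-199a-5p and miR-199b-5p also fell. MiR-10b-5p rose, with 1719 to 2036 in d/d and 762 to 824 in fl/fl MEF, and miR-143-3p was not called (0.22 ± 0.15, limma adjusted p = 0.213). In OV against fl/fl MEF 3 of the 8 fell, 1 rose and 4 were not called (over all 15.7% fell and 15.6% rose).

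How the pair stood against these markers therefore depended on the marker. Per 100 reads of miR-143-3p the 4 arms had 11.3 to 11.9 reads in OV, 6.80 to 8.60 in d/d and 12.0 to 20.2 in fl/fl MEF. Per 100 reads of miR-199a-3p they had 77.5 to 153 reads in OV, 86.2 to 108 in d/d and 93.9 to 98.7 in fl/fl MEF, where the groups overlapped. Taken against each marker in turn, d/d libraries lay below fl/fl libraries for 6 of the 8 and overlapped them for 2, miR-199a-3p and miR-199b-5p. The part of other cell types in the falls was not tested, and in bulk RNA fewer cells of a type and less RNA per cell cannot be told apart.

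The balance between arms needs no scaling, because each share is taken within a library. The 5p arm gave 9.32%, 17.3% and 14.2% of miR-221 reads in OV, 17.5%, 16.8% and 21.8% in d/d, and 14.6%, 13.3% and 13.9% in fl/fl MEF. All 3 d/d libraries lay above all 3 fl/fl libraries, whereas OV overlapped both groups. The d/d mean of 18.7% ± 2.71 was 4.78 percentage points above the fl/fl mean of 13.9% ± 0.668 (SD, n = 3 each; two-sided exact permutation p = 0.1, the smallest that 3 against 3 allow, and 0.3 after adjustment over 9 such tests).

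For miR-222 the 5p share was 0.864%, 0.919% and 0.805% in d/d and 0.768%, 0.647% and 0.676% in fl/fl MEF, a difference of 0.166 points with no overlap (exact permutation p = 0.1, adjusted 0.3). MiR-221-3p made up 21.7%, 18.7% and 17.7% of the reads of both 3p arms in d/d and 22.3%, 26.3% and 24.9% in fl/fl MEF. That share fell by 5.14 points in d/d, also without overlap (exact permutation p = 0.1, adjusted 0.3). In OV it ran to 30.8%, 17.5% and 20.9%, across the range of both other groups. In d/d, then, the 3p arm of each hairpin had a smaller share than in fl/fl, and miR-221-3p a smaller share of the pair, in 3 of 3 libraries each time. None of the 9 tests passed after adjustment, and none could.

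**Figure D3:**
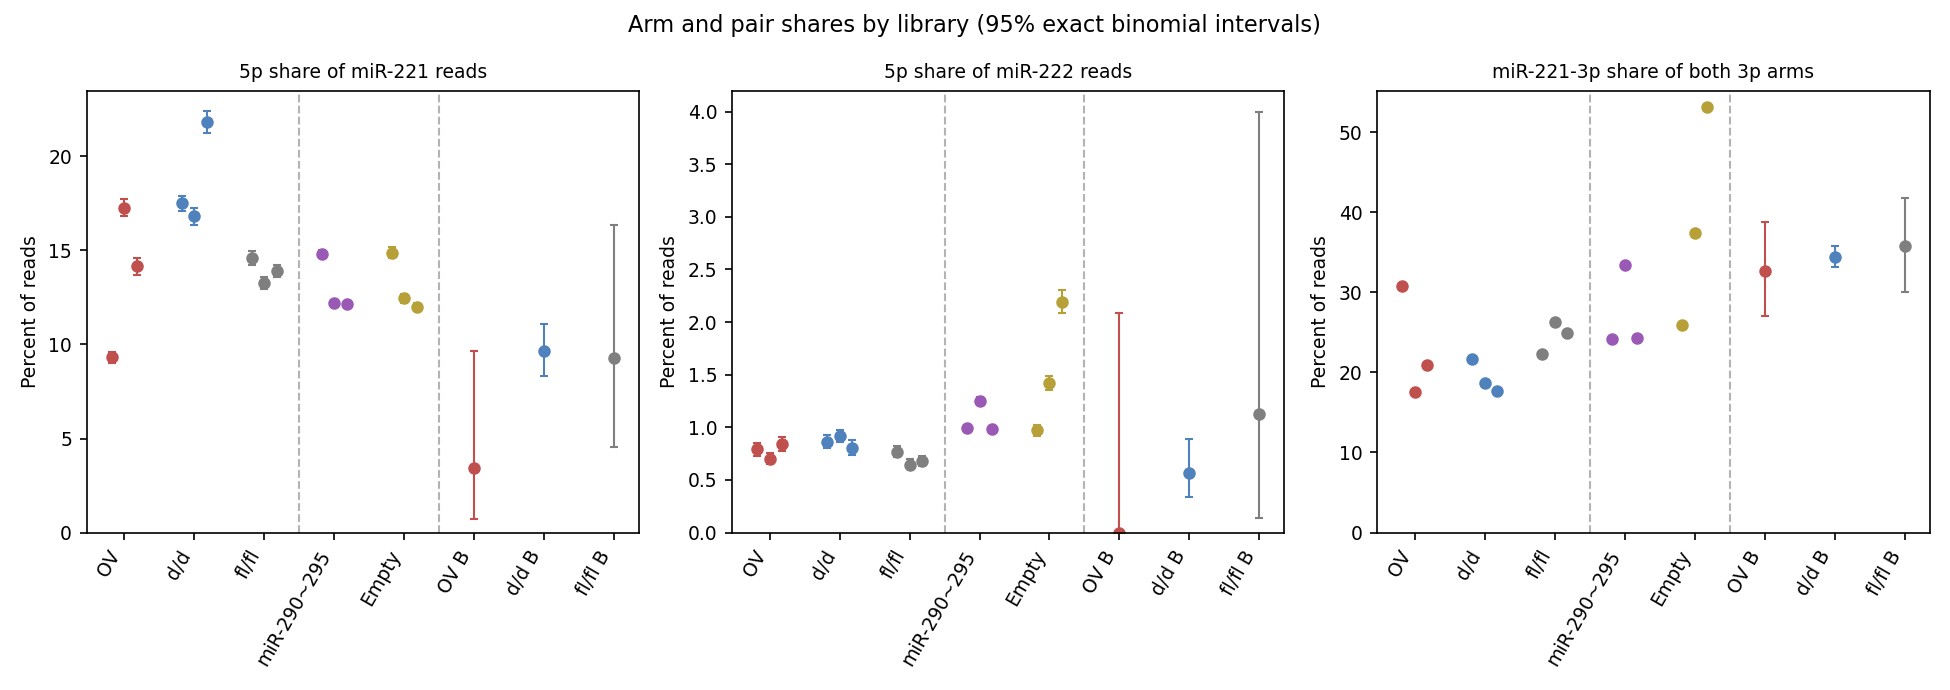
Share of reads in percent (y axes, linear, from 0) of the 5p arm within miR-221, of the 5p arm within miR-222, and of miR-221-3p within both 3p arms, for each of the 18 libraries. Points are libraries and whiskers are exact binomial 95% intervals, which cover counting error only and are narrower than most MEF points. In the left panel the d/d MEF points, at 16.8% to 21.8%, lie above the fl/fl MEF points, at 13.3% to 14.6%.

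In d/d MEF given miR-290~295, all 4 arms stood higher than in Empty MEF, with no overlap between the groups. This rise chose the pair. Across the 840 miRNAs kept in this set, 23.6% had miR-290~295 libraries all above Empty libraries and 49.6% had no overlap in either direction, while limma called 16.7% higher and 38.9% in either direction.

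MiR-222-3p had 408017, 324591 and 448918 normalized counts with miR-290~295 and 165710, 107660 and 62387 with Empty. The Empty libraries were far apart, with E1 at more than the double of E3, and still the lowest library with miR-290~295 lay well above E1. The log2 difference was 1.91 ± 0.31, the 21st highest of the 840. Without E1 it was 2.25, and without E3 it was 1.55.

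MiR-221-3p had 129638, 162802 and 144366 normalized counts with miR-290~295 and 58005, 64169 and 70678 with Empty, a log2 difference of 1.18 ± 0.14. Here the Empty libraries were close together. MiR-221-5p had 22555, 22608 and 19931 with miR-290~295 and 10133, 9125 and 9639 with Empty (log2 1.17 ± 0.13), nearly the same ratio as its partner arm. MiR-222-5p had 4080, 4099 and 4449 with miR-290~295 and 1624, 1552 and 1399 with Empty (log2 1.47 ± 0.14).

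With spike-in scaling these differences were 0.69, 0.69, 1.43 and 0.98 for miR-221-3p, miR-221-5p, miR-222-3p and miR-222-5p, where the median over all miRNAs was −0.46, against 0.02 without. Calls over all miRNAs then split into 56 higher and 331 lower, against 140 and 187 without spike-ins. As a share of reads the 4 arms together took 1.10% to 1.29% with miR-290~295 and 0.285% to 0.485% with Empty. The fibroblast markers took 3.98% to 4.65% of reads with miR-290~295 and 6.32% to 8.71% with Empty, and the part of this shift in the values was not tested. Of the 8 markers 6 fell and 0 rose with miR-290~295 (over all 22.3% and 16.7%). Per 100 reads of all of them the 4 arms had 23.6 to 30.0 reads with miR-290~295 and 3.27 to 7.67 with Empty. Against each of the 8 taken singly the groups were apart in the same direction. These ratios use the rise that chose the pair, over markers that mostly fell, and are given as a description only.

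The 5p share of miR-221 was 14.8%, 12.2% and 12.1% with miR-290~295 and 14.9%, 12.4% and 12.0% with Empty, so that the groups covered the same range. That of miR-222 was 0.990%, 1.25% and 0.981% with miR-290~295 and 0.970%, 1.42% and 2.19% with Empty. MiR-221-3p made up 24.1%, 33.4% and 24.3% of both 3p arms with miR-290~295 and 25.9%, 37.3% and 53.1% with Empty. E3 stood apart in both of the last shares, and its miR-222-3p was the lowest of the set.

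In B cells the pair was scarce outside the d/d library. The 4 arms together took 0.00258% of reads in OV, 0.0477% in d/d and 0.00269% in fl/fl B cells. The d/d rise chose the pair, and with 1 library per group no difference between B-cell groups has a replicate check. Of the 476 miRNAs that averaged 10 or more normalized counts, 16.2% were at least 2-fold higher in d/d than in fl/fl and 34.2% differed at least 2-fold in either direction. Of the 4 arms, 3 passed that minimum, and miR-222-5p did not.

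MiR-222-3p had 3178 reads in d/d and 176 in fl/fl B cells, which is 2523 and 166 normalized counts. The ratio of d/d over fl/fl was 15.2, with an exact 95% interval of 13.1 to 17.8 that covers counting error only. MiR-221-3p had 1669 reads in d/d and 98 in fl/fl (1325 and 92.4 normalized counts, ratio 14.3, interval 11.7 to 17.8). The ratios of the 3p arms lay within each other's intervals.

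MiR-221-5p had 178 reads in d/d and 10 in fl/fl B cells, a ratio of 15.0 with an interval of 7.96 to 31.8. MiR-222-5p had 18 reads in d/d and 2 in fl/fl, a ratio of 7.58 with an interval of 1.81 to 67.4, too wide to set it apart from the other arms. In d/d B cells miR-222-3p stood 84th and miR-221-3p 111th among the listed miRNAs, and in fl/fl B cells they stood 221st and 259th. Their differences were the 3rd and 4th highest of the 476, and that of miR-221-5p was the 5th highest. MiR-221-5p passed the minimum mean of 10 only through its d/d value. Its normalized level was 9.43 for fl/fl and 4.02 for OV B cells. The 3 ranks rest on the rise that chose the pair, so they are a description only.

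OV B cells were close to fl/fl B cells. MiR-221-3p had 85 reads in OV and 98 in fl/fl (114 and 92.4 normalized counts, ratio 1.23, interval 0.911 to 1.66), and miR-222-3p had 175 in OV and 176 in fl/fl (234 and 166 normalized counts, ratio 1.41, interval 1.14 to 1.75). The interval of miR-222-3p lay above 1, but with libraries scaled to equal totals of listed reads its log2 difference was 0.05 and that of miR-221-3p was −0.13. MiR-221-5p had 3 reads in OV and 10 in fl/fl (ratio 0.426, interval 0.0754 to 1.66). MiR-222-5p had 0 reads in OV, which by the limit of 3 reads allows up to 2.94e-05% of reads, and 2 in fl/fl, too few for a ratio. Over the 476 miRNAs, 6.3% were at least 2-fold higher in OV and 6.3% at least 2-fold lower.

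Fibroblast markers moved with the pair in the d/d B-cell library. All 8 had reads in each B-cell library, and they summed to 2643 normalized counts in OV, 9781 in d/d and 2790 in fl/fl B cells. Each of the 8 was higher in d/d than in fl/fl, by 1.17-fold for miR-152-3p to 4.49-fold for miR-214-3p, and the sum was 3.51-fold higher. MiR-143-3p, the most abundant of them, had 5266 normalized counts in d/d and 1303 in fl/fl.

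The pair was also set against those markers, as a description, since these ratios use the d/d values that chose the pair. Per 100 reads of the 8 markers, the 4 arms had 13.3 reads in OV, 40.9 in d/d and 9.67 in fl/fl B cells. In MEF they had 5.92 to 14.9 in the first set, and in the second 23.6 to 30.0 with miR-290~295 and 3.27 to 7.67 with Empty. Against each of the 8 taken singly the d/d value in B cells was also above the fl/fl value. The B cell and blood markers summed to 184778 normalized counts in OV, 182626 in d/d and 172278 in fl/fl B cells. As shares of reads these sums were 1.35%, 2.18% and 1.72%. Among them the blood-restricted miR-142a-3p had 68415 normalized counts in OV, 60603 in d/d and 61132 in fl/fl. In the same order miR-142a-5p had 72327, 90178 and 85053, miR-181a-5p 42896, 31351 and 25435, and miR-155-5p 1068, 469 and 597. The scarcest markers rested on few reads. MiR-150-5p, a miRNA of mature lymphocytes, had 71.0, 8.73 and 62.2 (53, 11 and 66 reads). MiR-223-3p, a miRNA of myeloid cells, had 1.34, 15.9 and 0 (1, 20 and 0 reads). By the limit of 3 reads, that 0 allows up to 2.83. The endothelial markers summed to 7354 normalized counts in OV, 2824 in d/d and 4172 in fl/fl B cells (0.0538%, 0.0336% and 0.0417% of reads). In the same order the epithelial markers summed to 2746, 2105 and 2576 (0.0201%, 0.0251% and 0.0258% of reads). The part of other cells in the d/d B-cell values was not tested.

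**Figure D4:**
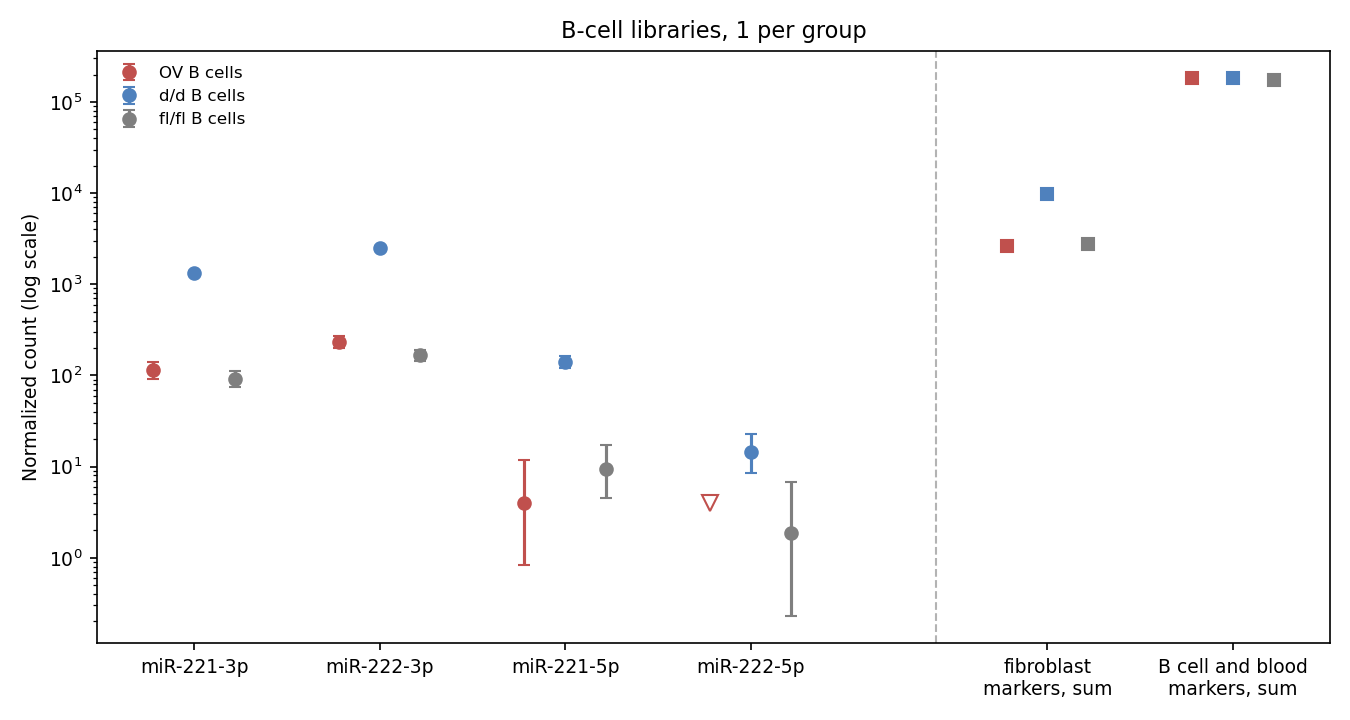
Normalized counts (y axis, log scale) of the 4 arms in the 3 B-cell libraries, with the summed fibroblast markers and the summed B cell and blood markers right of the dashed line. Whiskers are exact 95% intervals for counting error, and the open triangle is the upper limit that 0 reads allow (3 reads). The d/d points stand above the OV and fl/fl points for all 4 arms and for the fibroblast markers, at 9781 against 2643 in OV and 2790 in fl/fl.

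Arm shares could also be taken in B cells. MiR-221-3p made up 32.7% of both 3p arms in OV, 34.4% in d/d and 35.8% in fl/fl B cells, with overlapping binomial intervals. The 5p share of miR-221 was 3.41% in OV, 9.64% in d/d and 9.26% in fl/fl B cells. The OV value rests on 3 reads.

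As a share of reads, miR-222-3p ran over the 8 groups from 0.692% to 0.940% in miR-290~295 MEF, through 0.583% to 0.637% in fl/fl, 0.416% to 0.565% in OV, 0.380% to 0.421% in d/d and 0.123% to 0.341% in Empty MEF, down to 0.0301% in d/d, 0.00172% in OV and 0.00166% in fl/fl B cells. OV and d/d MEF overlapped in this order, as did OV and fl/fl B cells within counting error. MiR-221-3p took 0.274% to 0.347% in miR-290~295 MEF, 0.167% to 0.227% in fl/fl, 0.115% to 0.185% in OV, 0.119% to 0.140% in Empty and 0.0816% to 0.117% in d/d MEF. Here OV overlapped fl/fl, Empty and d/d. The sets differ in depth and were processed as separate tables, so no test was made across them.

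The miRNAs whose levels went most like those of the pair were found by Pearson's r with the mean log2 profile of the 3p arms. Over the 9 libraries of the first MEF set the 5 highest among 658 others were miR-30e-3p (r = 0.95), miR-7213-5p (0.94), miR-6966-3p (0.94), miR-187-3p (0.94) and miR-378a-5p (0.93), while the 3p arms had r = 0.78 with each other. MiR-30e-3p had 16845 to 17611 normalized counts in OV, 11672 to 12455 in d/d and 18362 to 23127 in fl/fl MEF. MiR-187-3p had 53.8 to 57.2 in OV, 15.3 to 24.2 in d/d and 102 to 143 in fl/fl MEF. In both, the 3 groups were apart in the order of the pair's means.

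Over the 6 libraries of the second set the 5 highest among 836 others were miR-6540-5p (r = 0.998), miR-290a-5p (0.995), miR-196a-5p (0.994), let-7e-3p (0.992) and miR-92b-3p (0.992), and the 3p arms had r = 0.82 with each other. MiR-290a-5p comes from the added cluster itself. MiR-196a-5p, which lies among the Hox genes, had 40711 to 45836 normalized counts with miR-290~295 and 10953 to 14907 with Empty, and miR-92b-3p had 16266 to 21028 and 4302 to 7186. These correlations are descriptions. The points share their libraries and scaling. With groups this far apart, a miRNA that differs between them in the same direction as the pair tends to have a high r.

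Other X-linked miRNAs were listed to set the pair beside its chromosome, and the 69 named, 34 of them past the minimum, leave the pair out. In d/d against fl/fl MEF 16 fell and 4 rose (over all miRNAs 27.6% and 30.7%), with a median log2 difference of −0.35, against 0.02 over all miRNAs (with spike-ins 23 fell and 0 rose, median −0.78 against −0.39). In OV against fl/fl MEF, where arms of the pair were lower, 12 of the 34 rose and 2 fell (over all 15.6% and 15.7%). The median was 0.26 against −0.07 over all. With spike-ins 12 rose and 0 fell (over all 112 and 44), and with medians set equal 7 rose and 3 fell (over all 83 and 153). In OV against d/d MEF 17 rose and 1 fell (over all 26.7% and 25.7%; median 0.37 against 0.02), and with spike-ins 30 rose and 0 fell (median 0.94 against 0.60). MiR-676-3p, with 7416 normalized counts in OV and 2725 in fl/fl MEF, rose by 1.43 ± 0.16 (limma adjusted p = 0.000164), and miR-452-5p fell by 1.53 ± 0.32 in d/d (limma adjusted p = 0.00226). MiR-106a-5p and miR-20b-5p changed more, but they are near copies of members of miR-17~92, and the counting could have shared reads between them.

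With miR-290~295, where the pair stood higher, 14 of 40 X-linked miRNAs fell and 5 rose (over all 22.3% and 16.7%; median −0.34 against 0.02), and with spike-ins 25 fell and 1 rose (median −0.82 against −0.46). The testis-enriched miR-465b-5p, which has near-identical copies that could share its reads, fell by 3.53 ± 0.62 (limma adjusted p = 0.0023). MiR-881-3p fell by 3.11 ± 0.50 (limma adjusted p = 0.00144) and miR-470-5p by 2.77 ± 0.71 (limma adjusted p = 0.0137). Their means, in this order, were 2.29, 3.15 and 3.22 normalized counts with miR-290~295 and 30.6, 32.5 and 21.6 with Empty. The lower means are near 3 reads, where the 1 added before log2 weighs on the size of a fall. In B cells 4 of 35 were at least 2-fold higher and 1 at least 2-fold lower in d/d than in fl/fl (over all 16.2% and 18.1%), and 8 were higher and 2 lower in OV (over all 6.3% each).

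MiRNAs that target inhibitors of cyclin-dependent kinases, the class of Cdkn1b, formed another list of 15. Of 11 past the minimum, 9 fell and 0 rose in d/d against fl/fl MEF (over all 27.6% and 30.7%; median −1.26). In OV against fl/fl 6 rose and 1 fell (over all 15.6% and 15.7%), with a median of 0.34. In OV against d/d 8 rose and 0 fell (over all 26.7% and 25.7%), with a median of 0.90. With spike-ins 11 rose and 0 fell in OV against d/d (over all 333 and 120). The list holds miR-17-5p and miR-20a-5p of the manipulated cluster, miR-20b-5p and miR-106a-5p, which resemble them, and miR-291a-3p, miR-294-3p and miR-295-3p of the added cluster, so its counts are partly set by the design. With miR-290~295, 6 of 12 rose and 2 fell (over all 16.7% and 22.3%), with a median of 0.34. With spike-ins 5 rose and 4 fell (over all 56 and 331), with a median of −0.15 against −0.46 over all. In B cells 0 of 11 were at least 2-fold higher and 3 at least 2-fold lower in d/d than in fl/fl (over all 16.2% and 18.1%), and 2 were higher and 0 lower in OV (over all 6.3% each).

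A list of 15 miRNAs was drawn up for AP-1 and NF-kappaB, factors reported to act on the pair in human cells. Of these, 12 passed the minimum. Not every member is established as responsive to these factors: miR-132-5p and miR-212-5p are usually grouped as responsive to another factor, CREB. In d/d against fl/fl MEF 2 of the 12 rose and 2 fell, where 30.7% and 27.6% of all miRNAs did, with a median of 0.04. With spike-ins 0 rose and 6 fell (over all 147 rose and 283 fell), with a median of −0.39, the same as over all miRNAs. MiR-146b-5p, which restrains inflammatory signalling, fell by 1.56 ± 0.17 (limma adjusted p = 3.25e-05), with 8288 normalized counts in d/d and 24369 in fl/fl MEF. In OV against fl/fl 2 rose and 3 fell (over all 15.6% and 15.7%). MiR-146a-5p rose by 1.51 ± 0.15 (limma adjusted p = 9.72e-05). The falls include both CREB-grouped members, miR-212-5p by 1.64 ± 0.15 (limma adjusted p = 8.21e-05) and miR-132-5p by 1.26 ± 0.20 (limma adjusted p = 0.00204). The median was 0.09, against −0.07 over all miRNAs. With medians set equal it was −0.04, against −0.20 over all.

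In OV against d/d 2 of these 12 rose and 4 fell (over all 26.7% and 25.7%), with a median of −0.21. The counts turned with the scaling, to 5 higher and 1 lower with spike-ins (median 0.35) and to 3 higher and 2 lower with medians set equal (median −0.06). Over all miRNAs 333 were higher and 120 lower with spike-ins (median 0.60), and 208 and 142 with medians set equal (median 0.18). The list's median lay below that over all miRNAs in each scaling, also without spike-ins (0.02 over all). With miR-290~295 3 of 14 rose and 1 fell (over all 16.7% and 22.3%), with a median of 0.29. With spike-ins 2 rose and 3 fell (over all 56 and 331), with a median of −0.20 against −0.46 over all. MiR-31-5p rose by 1.10 ± 0.15 (limma adjusted p = 0.000593) and miR-146a-5p fell by 2.19 ± 0.20 (adjusted p = 6.27e-05). In B cells 2 of 11 were at least 2-fold higher and 2 at least 2-fold lower in d/d than in fl/fl (over all 16.2% and 18.1%), and 1 was higher and 1 lower in OV (over all 6.3% each).

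Of 9 miRNAs linked to vessels or to Kit, 8 passed the minimum in the first MEF set. In d/d against fl/fl MEF 3 fell and 1 rose (over all 27.6% and 30.7%), with a median of 0.08. With spike-ins 4 fell and 1 rose (over all 283 and 147), with a median of −0.35 against −0.39 over all. Without spike-ins miR-126a-3p, the endothelial miRNA, fell by 1.08 ± 0.11 (limma adjusted p = 2.5e-05), with 998 normalized counts in d/d and 2106 in fl/fl MEF. MiR-494-3p rose by 2.52 ± 0.33 (adjusted p = 9.79e-05). In OV against fl/fl 1 rose and 1 fell (over all 15.6% and 15.7%), with a median of −0.10. With spike-ins 1 rose and 0 fell (over all 112 and 44), with a median of 0.03 against 0.07 over all. In OV against d/d 3 rose and 1 fell (over all 26.7% and 25.7%; median 0.06), or 6 and 1 with spike-ins (median 0.63 against 0.60 over all).

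With miR-290~295, 6 of the 9 fell and 0 rose (over all 22.3% and 16.7%; median −0.77), or 7 and 0 with spike-ins (median −1.25 against −0.46 over all). MiR-145a-5p, a smooth muscle miRNA that is also among the fibroblast markers, fell by 1.35 ± 0.24 (limma adjusted p = 0.0023), with 4509 normalized counts with miR-290~295 and 11481 with Empty. MiR-193b-3p fell by 1.92 ± 0.35 (adjusted p = 0.00249). In B cells 3 of 5 were at least 2-fold higher and 0 at least 2-fold lower in d/d than in fl/fl (over all 16.2% and 18.1%). Those higher include the fibroblast marker miR-145a-5p, at 18.3 normalized counts in d/d and 8.48 in fl/fl (23 and 9 reads). The endothelial miR-126a-3p and miR-126a-5p stood lower, at 2688 and 137 in d/d against 3974 and 198 in fl/fl. In OV 0 were past 2-fold (over all 6.3% in each direction).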

How the data were processed

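Per the labels' protocols, total RNA with spike-ins was gel-purified for small RNAs and made into NEBNext libraries. The deposited values are signals, namely read counts per mature miRNA that the authors divided by each library's size factor. The submitters' processing notes name DESeq2 with no version; the tools of alignment, the annotation and the build were not given in the sources used here. Whole reads were recovered, since values in all 5 deposited files were whole multiples of a library's step (100% within 0.0001). Left out were 33 columns of transformed values.

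The OV and FL columns match their group but no single labelled replicate and were used by group. Tests used limma-trend (limma 3.58.1, R 4.3.3) on log2(normalized count + 1), tables without spike-in scaling, a minimum mean of 10, and the 9 libraries of the first set sharing 1 spread. The fit was also run on simulated counts with independent libraries and the same spread for all miRNAs. That run does not check the spread assumed for these libraries. Libraries of a group differed far beyond sampling noise. Intervals of shares and of ratios are exact binomial ones, and those of normalized counts in B cells are exact Poisson ones. Alternatives were spike-in or re-centred scaling, pseudocounts of 0.5 and 5, minimum means, edgeR 4.0.16, DESeq2 1.42.0, the compared groups alone, and each library left out.

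The members and lists were chosen with earlier results of these data known. Named are the 4 members, at most 3 called members per list with the largest change, and the 5 miRNAs most correlated with the 3p arms.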

Additional observations from a re-analysis of the deposited data

Results flagged for a closer look

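In d/d against fl/fl the pair moved in opposite directions in the cell types: every arm was lower in d/d MEF, in 3 of 3 libraries, and higher in the single d/d B-cell library. The log2 difference in B cells minus that in MEF was 4.996 for miR-221-3p, 4.65 for miR-222-3p, 4.44 for miR-221-5p and 2.82 for miR-222-5p. For miR-222-5p the B-cell part rests on 18 reads in d/d and 2 in fl/fl, and ran from 1.19 to 2.63 over the alternatives. The summed fibroblast markers were 3.51-fold higher in the same d/d B-cell library, and their part was not tested. This difference between cell types was not tested, since B cells have 1 library per group, and the rise in B cells was used to choose the pair.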

How the results depend on the processing

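Over all results and alternatives, 338 values stayed the same by the rule for their kind, 27 calls were lost, 5 were gained, 7 values moved and 7 changed sign. The rule was direction and side of the threshold for tested arms, and the spread between libraries for arms with miR-290~295. For arm shares it was the sign, for B cells the counting interval, and for numbers of called miRNAs their ratio to the main fit. The moved values include the 124 called without FL5 and miR-222-3p in OV against fl/fl B cells. The cause of these changes was not tested. In OV against fl/fl MEF the spike-in values and calls lost are −0.44, −0.52 and −0.29 (miR-221-3p, miR-221-5p, miR-222-3p). MiR-221-3p also lost its call with edgeR (−0.52, adjusted p = 0.0701) and with only the compared groups (−0.58, adjusted p = 0.0720), and miR-222-3p with edgeR (−0.37, adjusted p = 0.0755), only the compared groups (−0.43, adjusted p = 0.0791) and no minimum (−0.43, adjusted p = 0.0577). Leaving out 1 library gave −0.77 to −0.44 for miR-221-3p, −0.83 to −0.57 for miR-221-5p, −0.60 to −0.32 for miR-222-3p, and 124 to 233 called miRNAs in place of 207, the lowest without FL5. For miR-222-5p in d/d against fl/fl it gave −0.48 to −0.37. In OV against d/d it gave 0.40 to 0.73 for miR-221-3p, −0.16 to 0.10 for miR-221-5p, which changed sign without OV2 (−0.16) or DEL2 (−0.10), and 0.13 to 0.41 for miR-222-3p, called without OV1 (adjusted p = 0.0291). There spike-in values were 0.57, 0.87 and 0.72 for miR-221-5p, miR-222-3p and miR-222-5p, and miR-222-3p was called with medians re-centred (0.46, adjusted p = 0.0393). With miR-290~295, moved values were 0.69, 0.69 and 0.98 with spike-ins (miR-221-3p, miR-221-5p, miR-222-5p) and 1.06 and 1.36 re-centred (miR-221-5p, miR-222-5p). Leave-one-out differences in arm share were −2.19 to 1.79 points for the 5p share of miR-221 in OV against fl/fl (1.79 without OV1, 0.00046 without FL3), −5.29 to 1.36 for miR-221-3p among the 3p arms in OV against fl/fl (1.36 without OV2), and −0.15 to 6.50 in OV against d/d (−0.15 without OV1). With libraries scaled to equal totals of listed reads, OV against fl/fl B cells gave −0.13 for miR-221-3p and 0.046 for miR-222-3p. With the replicate number as a block, 298 miRNAs were called with miR-290~295 against Empty in place of 327; same-numbered libraries there deviated with r = 0.28, 0.01 and −0.26, not every library correlated best with its own number, and no call was made for the pair. On the recovered whole reads edgeR called 182 miRNAs and DESeq2 236 for OV versus fl/fl (limma 207), 391 and 402 for d/d versus fl/fl (limma 386), 350 and 350 for OV versus d/d (limma 347), and 327 and 348 for miR-290~295 versus Empty (limma 327). In the first set no block could be fitted because the OV and FL columns do not carry the labels' replicate numbers. Depth limits the 5p arms in B cells, where 10 or fewer reads stood behind the OV and fl/fl values.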
